A study of Mus musculus with 2 samples.

Results

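The transcripts of 51 genes of the mitotic spindle, the kinetochore and the chromosome segregation machinery were compared between 1 wild-type (WT) and 1 Stat6 knockout (KO) library of cultured mouse intestinal stem cells. The genes were chosen by name: mitotic kinases, checkpoint and centromere proteins, kinesins, condensins and their partners. All 51 were found among the 18944 genes listed in both deposited tables, and 50 of them reached 1 FPKM (read fragments per kilobase of transcript length, relative to all mapped fragments of a library) in at least 1 library, as did 12079 genes in all. The exception was Kif14, a kinesin of late cytokinesis, at 0.83 FPKM (WT) and 0.59 FPKM (KO).

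Cells of both libraries carried Lgr5GFP-CreERT2, an allele in which the stem cell gene Lgr5 drives GFP and a tamoxifen-inducible Cre, and came from mice aged 2 months. Both were grown with EGF, R-spondin 1, N-acetylcysteine and Y27632. The KO cells were made with a lentivirus carrying CRISPR/Cas and guides against Stat6, the transcription factor that IL-4 and IL-13 activate, and then screened. The same virus text stands under the WT sample, so the labels do not say what the WT cells received, nor whether the KO cells are 1 clone or a pool. With 1 library per genotype, no difference below has a replicate check and no test of genotype was made.

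Mitosis separates the duplicated chromosomes. Kinetochores assemble on centromeric chromatin and hold spindle microtubules, the spindle assembly checkpoint blocks the anaphase-promoting complex (APC/C) until every kinetochore is attached, and the APC/C then marks securin and cyclin B for destruction. In the intestinal crypt these genes are expressed by cycling stem cells and by transit-amplifying cells, and they are shut off as cells leave the cycle and differentiate. Their transcripts peak in G2 and mitosis, largely through promoter elements read by the DREAM complex, which represses them in quiescent cells, and by MYBL2 and FOXM1, which activate them. The elements are the cell cycle genes homology region (CHR) close to the transcription start, with the sequence TTTGAA, and upstream CCAAT boxes bound by the factor NF-Y.

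These elements were visible in the genes studied here. RefSeq promoter sequences (GRCm38.p6, from 250 bases before to 50 bases after the annotated start) were matched for 45 of the 51 genes, which had 50 promoters between them, some of them overlapping. Aurkb, Incenp, Kif20a, Smc4, Spc24 and Tpx2 had no entry. TTTGAA, searched on both strands as TTTGAA and TTCAAA, lay in 36 of the 50 promoters (72.0%), against 17.9% of all 32851 promoters of that length. Within 50 bases of the start it lay in 30 of 50 (60%), against 4.94%. CCAAT, searched as CCAAT and ATTGG, lay in 37 of 50 (74.0%), against 37.4%, and 21 of 50 held at least 2 matches (42.0%), against 11.7%. The 2 strands of CCAAT can overlap, as in CCAATTGG, which counted as 2 matches. The variant TTCGAA lay in 3 of 50 (6.0%), against 1.56%. A match is a description of the letters and not a measured binding site.

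**Figure D1:**
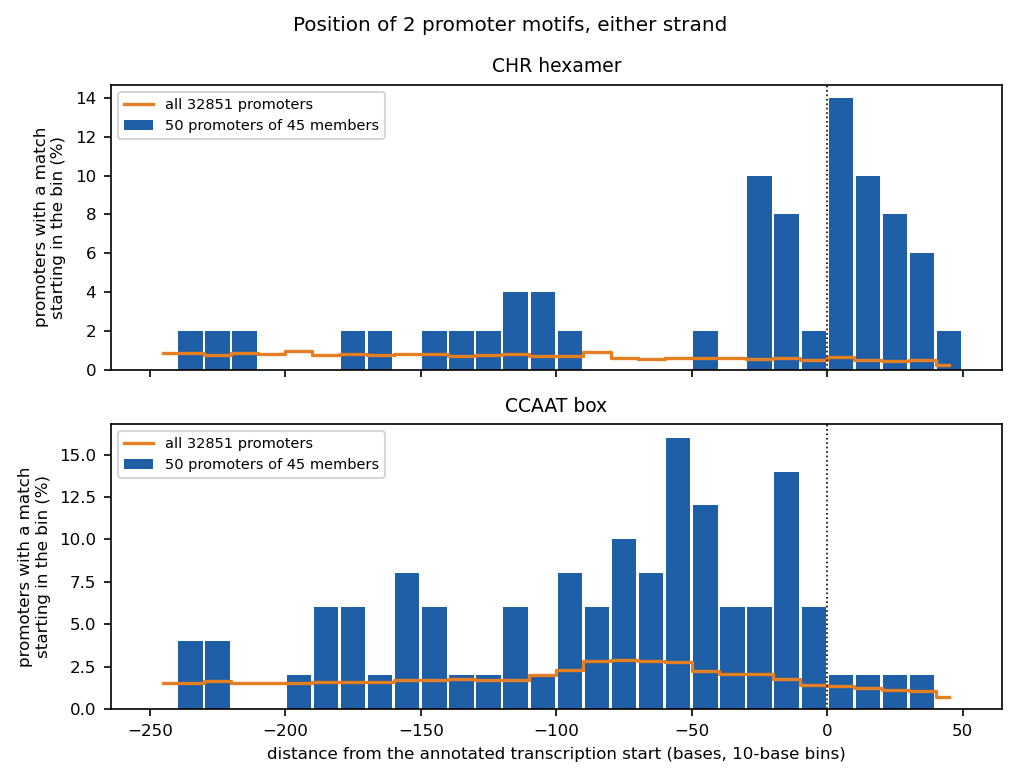
Share of promoters (%, vertical axis) with a match starting in each 10-base bin, by distance from the annotated start (bases, horizontal axis), for the CHR hexamer (top) and the CCAAT box (bottom). Bars are the 50 promoters of 45 mitotic genes and the line is all 32851 promoters. The tallest CHR bar, 14.0% just after the start, stands over a line at 0.633%, and the tallest CCAAT bar, 16% between 50 and 60 bases upstream, stands over a line at 2.78%.

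The 30 bases around the match nearest to the start are shown for 8 genes, the 4 with the lowest and the 4 with the highest KO to WT ratio among those with a match within 50 bases. The hexamer is in capitals, each sequence is 5′ to 3′ in the direction of the gene, and a TTCAAA is the same element on the opposite strand. In the order below, the first base of the match lay at positions 16, 8, 33, -18, -17, 3, -19 and -19, counted so that 1 is the annotated first base of the transcript and -1 the base before it. Having a match was a condition for being shown: Cenpk, Pttg1 and Ncaph, 3 of the 4 genes with the lowest ratios, had no TTTGAA in the promoters searched.
Ect2, chr3:27153822-27153851, minus strand: cgactggattttTTTGAAtcggaggcggca
Kif20b, chr19:34922353-34922382, plus strand: gagccgccattgTTTGAAtttgaaaaccgg
Aurka, chr2:172370521-172370550, minus strand: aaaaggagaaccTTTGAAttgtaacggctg
Cdc20, chr4:118437344-118437373, minus strand: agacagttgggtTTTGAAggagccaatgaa
Kif22, chr7:127042420-127042449, minus strand: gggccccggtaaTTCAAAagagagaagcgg
Kif23, chr9:61946780-61946809, minus strand: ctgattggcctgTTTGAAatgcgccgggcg
Kif11, chr19:37376351-37376380, plus strand: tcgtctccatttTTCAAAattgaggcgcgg
Kif15, chr9:122951050-122951079, plus strand: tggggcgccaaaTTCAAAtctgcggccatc

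The upstream part is shown for Top2a, because its promoter holds a row of CCAAT boxes, and for Cdc20, because 1 of its boxes lies beside the hexamer. These are the 200 bases before the start, with CCAAT or ATTGG in capitals. Top2a held 5 matches in this stretch and Cdc20 held 2, at -53 and -8.
Top2a, chr11:99024190-99024389, minus strand: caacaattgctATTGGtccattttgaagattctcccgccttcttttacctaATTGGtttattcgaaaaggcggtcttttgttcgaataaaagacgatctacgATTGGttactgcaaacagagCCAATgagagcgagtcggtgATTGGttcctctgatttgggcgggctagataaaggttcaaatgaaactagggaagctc
Cdc20, chr4:118437344-118437543, minus strand: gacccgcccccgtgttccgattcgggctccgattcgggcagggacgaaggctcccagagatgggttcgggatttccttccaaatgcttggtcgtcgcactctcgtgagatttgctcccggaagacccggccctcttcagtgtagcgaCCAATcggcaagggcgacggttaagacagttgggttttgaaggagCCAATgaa

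Mitotic transcripts were lower in the KO library almost throughout, mostly by less than 1.5-fold. Of the 51 genes, 50 had a lower FPKM in KO and 1, Kif15, a higher one. Together they made up 523.3 FPKM of the WT library and 389.4 FPKM of the KO library, or 74.4% of the WT sum, while the sum over all genes was 98.4% of WT. Bulk RNA cannot tell fewer dividing cells from less of these transcripts per cell. Differences are given as the log2 ratio, log2((KO FPKM + 1)/(WT FPKM + 1)), over the 50 genes that reached 1 FPKM. The added 1 draws ratios of low genes toward 0.

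The median log2 ratio of the 50 genes was -0.39, against -0.18 over all 12079 genes, so the typical gene also had a slightly negative ratio, and the mitotic genes lay 0.21 below that general level. With a trimmed mean of log ratios (TMM) scaling, the median of all genes moved by 0.20, to 0.02, and that of the mitotic genes was -0.18. Of the 50, 49 were below 0, against 69.6% of all genes, and 44 were below the median of all genes, against 50% by construction. Under TMM scaling 42 of 50 stayed below 0, and Kif11, Kif15, Kif22, Kif23, Nusap1, Racgap1, Ncapd2 and Mki67 were above it.

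The differences of single genes were small. By the log2 ratio with its added 1, none of the 50 was at least 2-fold lower, against 2.18% of all genes, and none at least 2-fold higher, against 2.44%. By the plain ratio of FPKM values, 2 of the 50, Cenpk and Ect2, were at least 2-fold lower, against 5.75% of all genes, and 12 at least 1.5-fold lower, against 18.3%. By the log2 ratio, 6 of 50 were at least 1.5-fold lower (Ect2, Cenpk, Pttg1, Ncaph, Kif20b and Aurka), close to the 11.4% of all genes; this share is near the background. By the same ratio none was at least 1.5-fold higher, against 5.7% of all genes. The interquartile range of the 50 log2 ratios ran from -0.47 to -0.26, against -0.40 to 0.06 over all genes. Of the 50, 23 lay below the lower quartile of all genes and 0 above the upper quartile. The 8795 genes of the same span of mean level, 1.55 to 40.3 FPKM, had a median of -0.19 and an interquartile range of -0.40 to 0.04.

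**Figure D2:**
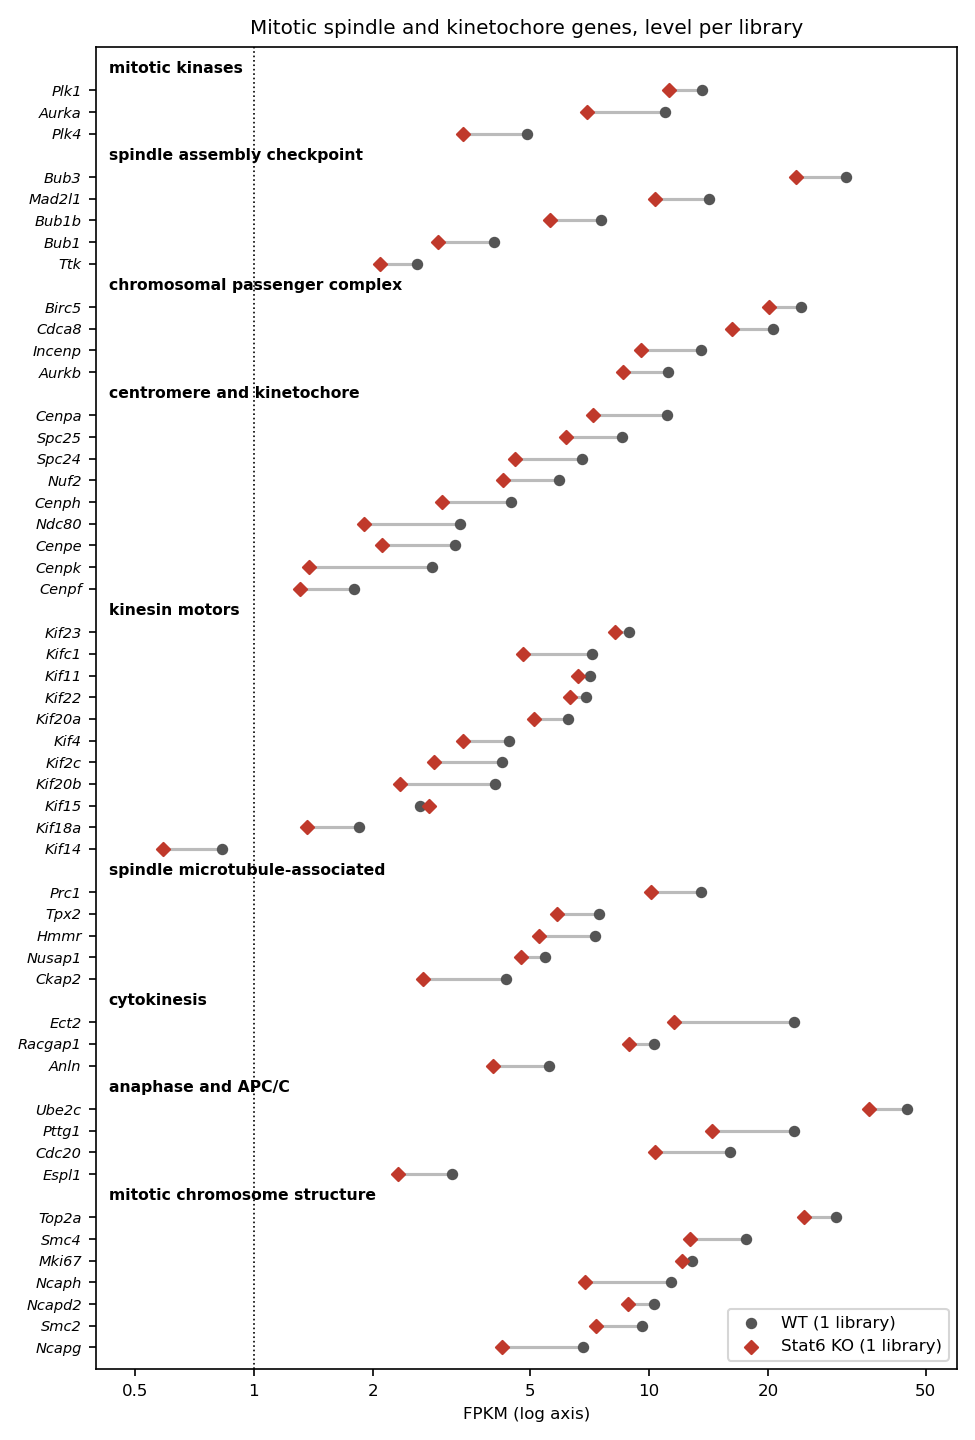
FPKM (log axis) of each of the 51 genes in the WT library (grey circle) and the Stat6 KO library (red diamond), by role and, within a role, by WT level. Points are single libraries with no error bars, the dotted line is 1 FPKM, and Kif15 is the 1 gene whose KO point lies to the right of its WT point.

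FPKM is scaled by transcript length, so levels can be ordered between genes. Ube2c, Bub3 and Top2a led in WT, Ube2c, Top2a and Bub3 in KO, and Kif14 was last in both. The median gene of the list stood at 7.29 FPKM in WT and 5.85 in KO, below the median measured gene, at 11.8 and 10.4 FPKM. From an estimated 19900000 reads in WT and 20000000 in KO, the 50 genes rested on about 72 reads or more each in WT and 35 or more in KO, with medians of 500.5 and 349.5. Totals above 30000000 reads were not searched, so the depth is uncertain, and a larger total would mean more reads and smaller counting SDs. In the other direction, the longest coding transcript was used for each gene, and a shorter one would mean fewer reads and larger SDs. The SD that counting alone gives the log2 of the plain FPKM ratio, without the added 1, was 0.04 to 0.30, with a median of 0.10. It was 0.30 for Cenpk, from about 72 and 35 reads. No SD was computed for the ratio with the added 1, where it would be smaller. These SDs cover counting error only and not the variation between cultures.

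Among the mitotic kinases, Aurka, the centrosomal kinase of spindle assembly, was at 10.97 FPKM (WT) and 6.97 FPKM (KO), a log2 ratio of -0.59. Plk4, which starts centriole duplication, was at 4.90 and 3.38 FPKM (-0.43). Plk1, the kinase that drives mitotic entry and many later steps, was at 13.61 and 11.22 FPKM (-0.26). All 3 were lower in KO, Aurka the most.

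The 5 checkpoint genes lay close together, with log2 ratios from -0.42 to -0.22. MAD2, encoded by Mad2l1, binds and holds back CDC20, and its transcript was at 14.16 FPKM (WT) and 10.35 FPKM (KO) (-0.42). Bub3, the adaptor that brings BUB1 and BUBR1 to kinetochores, was the most abundant of them, at 31.35 and 23.56 FPKM (-0.40). Bub1b, which encodes BUBR1, was at 7.55 and 5.61 FPKM (-0.37) and Bub1 at 4.04 and 2.93 FPKM (-0.36). Ttk, the MPS1 kinase that starts the checkpoint signal, was lowest in level, at 2.58 and 2.08 FPKM (-0.22). In KO these 5 transcripts stood at 72.5% to 80.6% of WT.

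The chromosomal passenger complex, which corrects wrong attachments and later marks the division plane, had ratios close to each other. Incenp, its scaffold, was at 13.49 FPKM (WT) and 9.54 FPKM (KO) (-0.46). Its kinase Aurkb was at 11.14 and 8.58 FPKM (-0.34), Cdca8 (borealin) at 20.54 and 16.21 FPKM (-0.32) and Birc5 (survivin) at 24.16 and 20.06 FPKM (-0.26). The 4 subunits were summed at 69.3 FPKM in WT and 54.4 in KO, or 78.5%.

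All 9 centromere and kinetochore genes were below the median of all genes, with a group median of -0.45. Cenpk, a subunit of the constitutive centromere network, had the lowest log2 ratio of the group (-0.69), at 2.83 FPKM (WT) and 1.38 FPKM (KO), which is 48.8% of WT. Its small read number makes it the least precise value of the list. Its partner Cenph was at 4.47 and 3.0 FPKM (-0.45). Cenpa, the histone H3 variant that defines centromeres, was at 11.09 and 7.19 FPKM (-0.56). The outer group members Cenpe, a kinetochore kinesin, and Cenpf had log2 ratios of -0.44 and -0.27.

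The 4 subunits of the NDC80 complex, the main microtubule anchor, form a heterotetramer, yet their transcripts differed in level. In WT they stood at 3.33 FPKM for Ndc80, 5.91 for Nuf2, 6.75 for Spc24 and 8.52 for Spc25. In KO they stood in the same order at 1.90, 4.26, 4.59 and 6.15 FPKM. The log2 ratios were -0.58, -0.39, -0.47 and -0.41, so the subunit with the lowest level was also lowest in ratio. Counting SDs, for the plain ratio, were 0.2 for Ndc80 and 0.15 for Spc24, so the order of these ratios is uncertain.

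The kinesin motors were the group nearest to the general level, with a median of -0.26 over 10 measured genes, 6 of them below the median of all genes. With a minimum of 5 FPKM, which left fewer kinesins, their median was -0.12, above the -0.155 of all genes under that minimum. Kif20b, a kinesin of late cytokinesis, was lowest, at 4.07 FPKM (WT) and 2.34 FPKM (KO) (-0.60). Kifc1, a minus-end motor that focuses spindle poles, was at 7.15 and 4.80 FPKM (-0.49), and the microtubule depolymerase Kif2c at 4.25 and 2.85 FPKM (-0.45). The other 7 fell on both sides of the general level.

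Another 4 kinesins stood at the upper end. Kif15, which backs up the bipolar motor, was at 2.64 FPKM (WT) and 2.77 FPKM (KO) (0.05), the highest ratio of the list. Kif11, the bipolar motor itself, was at 7.07 and 6.60 FPKM (-0.09). Kif23, the centralspindlin motor, was at 8.90 and 8.17 FPKM (-0.11), and Kif22, which moves chromosome arms, at 6.94 and 6.31 FPKM (-0.12). These 4 kinesins read above the median of all genes, while Kif4 (-0.31), Kif18a (-0.27) and Kif20a (-0.24) lay below it.

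Among proteins that bundle and nucleate spindle microtubules, Ckap2 was lowest in ratio, at 4.35 FPKM (WT) and 2.68 FPKM (KO) (-0.54). Hmmr, a spindle pole protein, was at 7.29 and 5.26 FPKM (-0.41), and Prc1, the midzone bundler, at 13.52 and 10.13 FPKM (-0.38). Tpx2, the activator of Aurora A, was at 7.47 and 5.85 FPKM (-0.31), and Nusap1 at 5.44 and 4.73 FPKM (-0.17). Aurora A's own transcript thus had a lower ratio than that of its activator.

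Cytokinesis held the lowest log2 ratio of all 51 genes, although by plain FPKM Cenpk was lower (48.8% of WT). Ect2, a guanine nucleotide exchange factor that acts at the division plane, was at 23.26 FPKM (WT) and 11.54 FPKM (KO), 49.6% of WT and a log2 ratio of -0.95. It ranked 6th in level in WT and 9th in KO, so it was not a scarce transcript. Racgap1, the centralspindlin subunit that recruits ECT2, was at 10.31 and 8.89 FPKM (-0.19), and its motor partner Kif23 was described above. Anln, the anillin scaffold of the contractile ring, was at 5.59 and 4.02 FPKM (-0.39). Within this pathway the exchange factor and its recruiters therefore stood far apart. With a pseudocount of 0.1 Ect2 was the 1 gene of the list past 2-fold, and with TMM scaling the 1 gene past 1.5-fold.

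The 4 genes of anaphase onset were all below the median of all genes. Pttg1, which encodes securin, the inhibitor of separase, was at 23.27 FPKM (WT) and 14.40 FPKM (KO) (-0.66). Espl1, separase itself, was at 3.17 and 2.31 FPKM (-0.33). The APC/C activator Cdc20 was at 15.99 and 10.37 FPKM (-0.58), and its ubiquitin-conjugating enzyme Ube2c, the most abundant of the 51, at 44.72 and 35.85 FPKM (-0.31). Securin and CDC20 were lower in ratio than their partners.

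Condensin, which compacts chromosomes, was uneven among its subunits. The kleisin Ncaph was at 11.37 FPKM (WT) and 6.87 FPKM (KO) (-0.65), and Ncapg at 6.79 and 4.24 FPKM (-0.57). The shared core ATPases Smc4 and Smc2 were at 17.54 and 12.69 FPKM (-0.44) and at 9.61 and 7.33 FPKM (-0.35). Ncapd2, another non-SMC subunit of condensin I, was at 10.28 and 8.85 FPKM (-0.20).

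Top2a and Mki67, both used as markers of proliferating tissue, had log2 ratios above the median of the list. Top2a, the topoisomerase that untangles sister DNA, was at 29.73 FPKM (WT) and 24.62 FPKM (KO) (-0.26). Mki67, the Ki-67 coat protein of mitotic chromosomes, was at 12.82 and 12.13 FPKM (-0.07), or 94.6% of WT, the second highest ratio of the 51 genes.

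**Figure D3:**
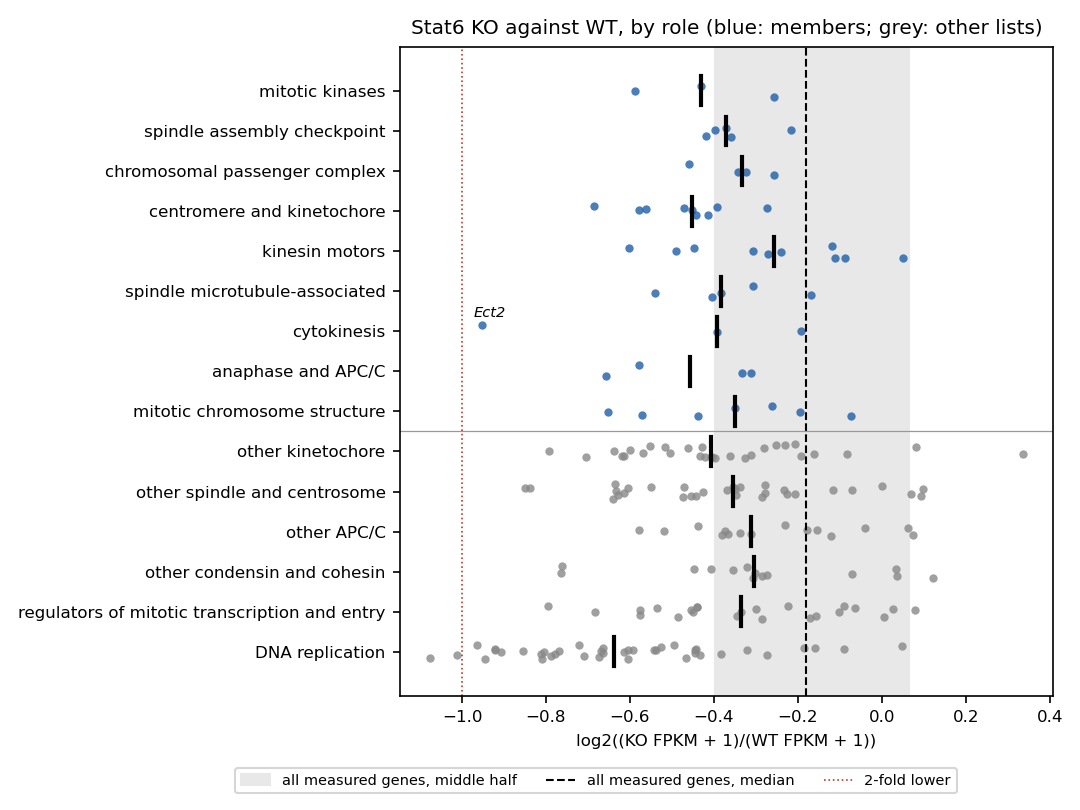
Log2 ratio of KO to WT (horizontal axis) for each measured gene, by role for the mitotic genes (blue) and for the other lists (grey), with black bars at the medians. Shading and dashed line give the interquartile range and median of all 12079 genes, and the dotted line 2-fold. Ect2 stands at -0.95, the medians of the 9 roles lie between -0.46 and -0.26, and that of DNA replication genes at -0.64.

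Other genes of the same machinery, from a list of 90 related mitotic genes of which 89 were measured, had a similar median of -0.35, with 78 of 89 below 0, against 69.6% of all genes, and 69 of 89 below the median of all genes. By the log2 ratio 16 of 89 were at least 1.5-fold lower, against 11.4% of all genes, and 0 at least 2-fold lower, against 2.18%. By plain FPKM 4 of 89, Cenpm, Ska2, Haus3 and Gtse1, were at least 2-fold lower, against 5.75% of all genes; this count was added after the values were seen. The other kinetochore genes had a median of -0.41, from Ska2, of the SKA complex (5.24 and 2.60 FPKM, -0.79), and Cenpt (-0.70) to Cenpl (0.08) and Hjurp, the CENP-A chaperone (8.37 and 10.84 FPKM, 0.34). Cenpa and its chaperone were thus on opposite sides of 0 in these libraries. Ska1, at 0.99 and 0.50 FPKM, was not measured.

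Other spindle and centrosome genes had a median of -0.36. The lowest were Gtse1, a microtubule plus-end protein (7.26 and 3.58 FPKM, -0.85), and the augmin subunit Haus3 (6.95 and 3.45 FPKM, -0.84), and the highest were Cenpj (0.09) and Clasp1 (0.10). Other APC/C genes had a median of -0.31, with 0 of 15 at least 1.5-fold lower, against 11.4% of all genes. Fbxo5, the APC/C inhibitor EMI1, was at -0.58, the chain-extending enzyme Ube2s at -0.52, the core subunit Anapc4 at 0.06 and the activator Fzr1 at 0.07. Other condensin and cohesin genes had a median of -0.30, with the condensin II subunit Ncapg2 and the cohesin acetyltransferase Esco2 both at -0.76, and Wapl (0.04) and Stag2 (0.12) highest.

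Of 23 regulators of mitotic transcription and entry, 20 were below 0, against 69.6% of all genes, with a median of -0.34. Of the 23, 15 were below the median of all genes, against 50%. Mybl2 and E2f1, 2 of the 23, were at least 1.5-fold lower, against 11.4% of all genes, so this count is not above the background. Mybl2, which encodes B-MYB, was at 12.12 FPKM (WT) and 6.56 FPKM (KO) (-0.80), and E2f1 at 6.97 and 3.96 FPKM (-0.68). Foxm1 was at 4.64 and 3.47 FPKM (-0.34). Ccnb1 and Cdk1, which encode the cyclin and kinase of mitotic entry, were at 13.49 and 9.35 FPKM (-0.49) and at 14.56 and 10.47 FPKM (-0.44). The highest were Rbl2, a pocket protein of DREAM (0.03), and the NF-Y subunit Nfyc (0.08).

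A CHR hexamer within 50 bases of the start did not go with a lower median ratio among the mitotic genes. The 28 measured genes with TTTGAA in that window had a median of -0.36, and the 16 with a promoter entry but no such match had -0.42. Some of these 16 held the hexamer further upstream, as Ckap2 at -101 and Mki67 at -98. Among genes outside the list, the 335 with the match had a median of -0.22 and 54.6% below the median of all genes, and the 9164 without it had -0.17 and 49.3%. The 187 with both the match and a CCAAT box had -0.23 and 56.1%. These differences were small beside the interquartile range of the 335 genes, -0.40 to 0.03, and were not tested.

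DNA replication genes, which act in S phase, were further down than the mitotic genes. Their median was -0.64 over 40 genes, with 37 below the median of all genes and 24 at least 1.5-fold lower, against 11.4% of all genes. The lowest were the helicase subunits Mcm7 (40.22 and 18.54 FPKM, -1.08) and Mcm3 (-1.01), and the highest Pola2 (-0.09) and Tk1 (0.05). Their summed FPKM in KO was 62.1% of WT, against 74.4% for the mitotic genes. The order of the medians, replication below mitosis below all genes, was the same in each of the 8 alternative settings run, although the difference itself has no test with 1 library per genotype.

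**Figure D4:**
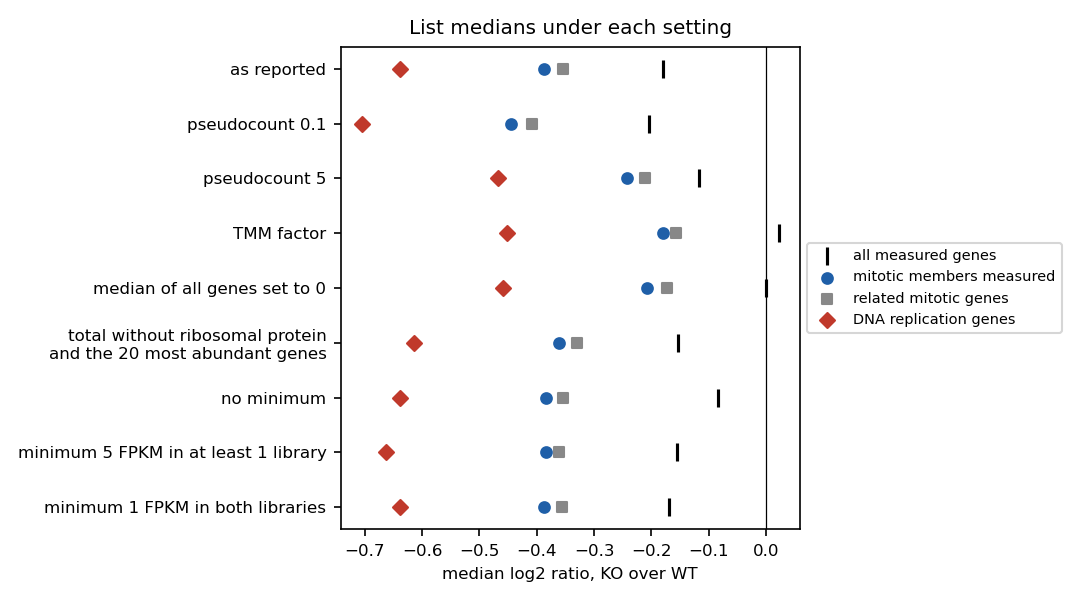
Median log2 ratio (horizontal axis) of all measured genes, the mitotic genes, the related mitotic genes and the DNA replication genes under each processing setting (rows). The replication median lies lowest and the median of all genes highest in every row, and with the TMM factor they stand at -0.45 and 0.02.

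Marker transcripts of other epithelial states differed between the libraries. All 26 absorptive enterocyte markers, genes of differentiated cells that have left the cell cycle, were higher in KO, against 3655 of all 12079 genes. Of the 26, 20 were at least 2-fold higher, against 2.44% of all genes. Their FPKM summed to 6644.0 in WT and 20725.2 in KO, with none at 0. Of 18 Lgr5 stem cell markers, 15 were below 0, against 69.6% of all genes, and 11 below the median of all genes, against 50%. Their median was -0.37, and their summed FPKM 409.3 in WT and 277.0 in KO. Among them Cd44 (-1.54) and Sox9 (-1.14) were lowest, Smoc2 and Tnfrsf19 (both 0.19) highest, and Lgr5 itself was at 1.79 and 1.88 FPKM. Olfm4 and Ascl2, other defining markers of these stem cells, were at 6.92 and 5.23 FPKM and at 9.28 and 5.29 FPKM. Lgr5 was therefore low in both libraries, and the summed FPKM of the 26 enterocyte markers exceeded that of the 18 stem cell markers in both. The sums rest largely on a few genes, such as Fabp1, at 2172.86 FPKM in WT. Single genes overlapped: in WT the stem cell markers Cd44 and Prom1 were at 85.88 and 65.93 FPKM, and the enterocyte markers Lct and Mme at 0.53 and 2.63 FPKM.

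Secretory lineage markers had a median of -0.19 over 20 genes, from Tph1 (-1.98) and Gcg (-1.86) to Muc2 (0.72) and Clca1 (1.52), with summed FPKM of 3544.2 and 3790.4. White blood cell markers summed to 48.9 and 22.5 FPKM, with 7 of 11 measured at least 1.5-fold lower, against 11.4% of all genes. Cd68 (-1.40) and Coro1a (-1.14) were lowest, Cd3g (-0.17) and Itgam (0.27) highest, and none of 16 was at 0. Markers of stroma, endothelium and nerve summed to 21.8 and 10.8 FPKM, with 8 of 18 measured, from Cldn5 (-1.47) and Dcn (-1.0) to Kdr (-0.33) and Tagln (0.05), and Gfap at 0 in KO. The part of these marker differences in the lower mitotic transcripts was not tested. Stat6 was at 41.30 and 44.18 FPKM, which does not check the label, since a small CRISPR insertion or deletion need not lower a transcript.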

How the data were processed

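Per the labels' protocols, libraries of total RNA gave single-ended reads of 50 bases (BGISEQ-500). The authors deposited 1 FPKM value per gene and library, with 2 decimals, per the file headers. HISAT, Bowtie2, RSEM and mm9 are named in the submitters' processing notes, without versions or roles, and which gene annotation was used is not given there. RSEM-type estimation can divide reads between a gene and its near-identical copies. The tables were joined on Entrez number, and symbols taken from the files.

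The log2 ratio used a pseudocount of 1 FPKM and was taken for genes that reached 1 FPKM in either library. FPKM carries no replicates here, so no test was made, and no p-value is given. Depth was estimated from the steps of short RNA values, as the total between 5000000 and 30000000 that brought most low values near whole reads (85.9% in WT and 87.2% in KO within 0.1 read, chosen to be high). It lies below the average of 59000000 reads per sample of the labels. Reads per gene use the longest coding transcript in GENCODE M21 and are approximate.

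All 51 genes are accounted for, the 3 largest ratios of each role with their values, and of other lists the 2 highest and 2 lowest, plus Foxm1, Mybl2, Ccnb1, Cdk1, Lgr5 and Stat6. The members and lists were chosen with earlier results of these data known. Promoter letters come from RefSeq tables of GRCm38.p6, a later build than mm9, matched by Entrez number. The calculations were tested on simulated data. Python 3.11.15, numpy 2.4.6 and pandas 2.3.3 were used.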

Additional observations from a re-analysis of the deposited data

How the results depend on the processing

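With 1 library per genotype, scaling, pseudocount and the minimum level each moved some values. A minimum of 5 FPKM moved the kinesin median from -0.26 to -0.12 and that of the anaphase genes from -0.46 to -0.58, by leaving fewer genes. The count of mitotic genes at least 2-fold lower was 1 with a pseudocount of 0.1 (Ect2) and 0 in the other 7 settings. The count at least 1.5-fold lower, 6 as reported, was 12 with a pseudocount of 0.1 (against 17.6% of all genes), and 1 with a pseudocount of 5, with the TMM factor and with the median of all genes set to 0 (against 3.74%, 5.4% and 5.19% of all genes). The median of the mitotic genes, -0.39 as reported, was -0.24 with a pseudocount of 5, -0.18 with the TMM factor and -0.21 with the median of all genes set to 0. Under the same 3 settings the related mitotic genes had medians of -0.21, -0.16 and -0.17, and 0, 5 and 3 genes at least 1.5-fold lower. A larger pseudocount shrinks ratios by construction, and setting the median of all genes to 0 shifts every ratio alike. The TMM factor multiplies the KO FPKM before the pseudocount is added, so it moves ratios of low genes less. It moved Cenpk from -0.69 to -0.55 and Ube2c from -0.31 to -0.09. Relative to all genes, the mitotic median lay between 0.13 and 0.30 below in all 8 settings. The 0.30 was with no minimum level, where the median of all 18944 genes was -0.08 and that of the mitotic genes -0.38. The other 42 of 56 comparisons of counts and medians stayed within 0.1 of the reported median or 1.5 times the reported count. These 56 cover only the whole list of mitotic genes and that of related genes. For role medians and ratios of single mitotic genes, 288 comparisons stayed within 0.1 and 169 moved further. No paired analysis was possible because each genotype has 1 library. Leaving out a replicate was not possible for the same reason. Depth limits single ratios most for Cenpk, where counting alone gives the log2 of the plain FPKM ratio an SD of 0.30.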
